A study of Arabidopsis thaliana with 8 samples.

Results

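Aquaporins are channel proteins of the major intrinsic protein family that let water, and in some members small uncharged solutes such as ammonia, urea, hydrogen peroxide or boric acid, cross a membrane down its gradient. In plants they form 4 main subfamilies. Plasma membrane intrinsic proteins (PIPs) carry water across the cell surface, tonoplast intrinsic proteins (TIPs) lie in the membrane of the vacuole, nodulin 26-like intrinsic proteins (NIPs) include channels for boric acid and arsenite, and small basic intrinsic proteins (SIPs) lie in the endoplasmic reticulum. PIP1 proteins reach the plasma membrane together with PIP2 partners, and PIP2 proteins are the stronger water channels.

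Here the aquaporins were the rows of the count tables whose gene symbol follows the PIP, TIP, NIP and SIP naming scheme or is an older name of a member (such as *GAMMA-TIP* or *RD28*), which gave 33 of 33028 genes. They comprised 13 PIP, 9 TIP, 8 NIP and 3 SIP genes. From a list of the 35 aquaporin loci of *Arabidopsis*, *TIP2* (AT3G26520, named TIP1 member 2 in the family) and *NLM1* (AT4G19030) have symbols outside the scheme. All 33 members matched a locus of the TAIR10.1 annotation. They are named below by the symbol of the count tables or by a synonym in that annotation, and with their locus at first mention.

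Whole seedlings of *Arabidopsis thaliana*, ecotype Col-0, had been grown without stress treatment on plates at 22 °C under short days (8 h light, 16 h dark), and the labels give their age as 14 days after germination, whereas the methods of the study give a younger age. Total RNA was sequenced with a QuantSeq kit, which sequences only the 3′ portion of mRNAs, and its counts were therefore not divided by gene length. There were 4 groups of 2 libraries. *HRE1α* OX and *HRE1β* OX plants carry transgenes for the splicing variants of *HRE1*, which encodes a transcription factor of the low-oxygen response (group VII of the ERF family). *AtRH17* OX plants carry a transgene for an RNA helicase of the DEAD-box family, and WT plants carry none. *HRE1α* OX plants were from 1 line of an earlier study, *HRE1β* OX plants carry the open reading frame in the vector pFGL571, and the promoter of either transgene and the making of the *AtRH17* OX plants are not given in the sources used here. Transgenic plants in the study were homozygous and had been selected on kanamycin.

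Counts summed to between 25657217 and 30606058 per library, and aquaporins took 0.932% to 1.18% of them. *HRE1* (AT1G72360) stood at 169 and 195 CPM (counts scaled to a common library total with TMM factors) in *HRE1α* OXs, 33.9 and 34.3 CPM in *HRE1β* OX-labelled libraries, 43.4 and 35.7 CPM in *AtRH17* OX-labelled libraries, and 49.8 and 38.1 CPM in WT. *AtRH17* (AT2G40700) stood at 5.07 and 5.05 CPM in *AtRH17* OX-labelled libraries and at 9.21 and 8.27 CPM in WT, a log2 fold change over WT of −0.79 at an adjusted p of 0.0012 (edgeR). *HRE1* was higher in *HRE1α* OXs by 2.05 on the log2 scale (adjusted p = 2.1e-10) and had a log2 fold change of −0.37 in *HRE1β* OX-labelled libraries (adjusted p = 0.026, edgeR). Thus in these counts the gene named by the label was higher than in WT only in *HRE1α* OXs. The other lines are therefore called *HRE1β* OX-labelled and *AtRH17* OX-labelled. Counts near the 3′ end can miss a transgene that lacks the 3′ end of the gene, and this was not tested. The labels do not say whether the libraries of a group came from separate plants, so the tests measure the spread between these libraries only.

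Of the 33 aquaporins, 30 had enough counts to be tested, and 20 of these differed from WT in at least 1 line with an adjusted p below 0.05 in edgeR (quasi-likelihood fit of all 8 libraries, 22602 genes). None differed in both directions. In *HRE1α* OXs 6 members were higher than in WT and 0 were lower, against 1.57% higher and 1.8% lower among all genes tested (the count of lower members was also 0 with DESeq2, and at an unadjusted p under 0.05 by edgeR it was 3). In *HRE1β* OX-labelled libraries 8 members were higher and 2 lower, against 11.2% and 11.6% of all genes. In *AtRH17* OX-labelled libraries 13 were higher and 4 lower, against 15.3% and 15.5% of all genes. The 2 lower members in *HRE1β* OX-labelled libraries correspond to a share below the background, and the 4 in *AtRH17* OX-labelled libraries to a share near it. The median log2 fold change of the 30 members was 0.16, 0.15 and 0.28 in *HRE1α* OXs and in the *HRE1β* OX-labelled and *AtRH17* OX-labelled libraries, whereas over all genes it was −0.014, 7.5e-05 and −0.0082. All 3 comparisons use the same WT libraries, so they are not independent of each other. Whole seedlings hold many cell types, and fewer cells of a type and less RNA per cell cannot be told apart in them.

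**Figure D1:**
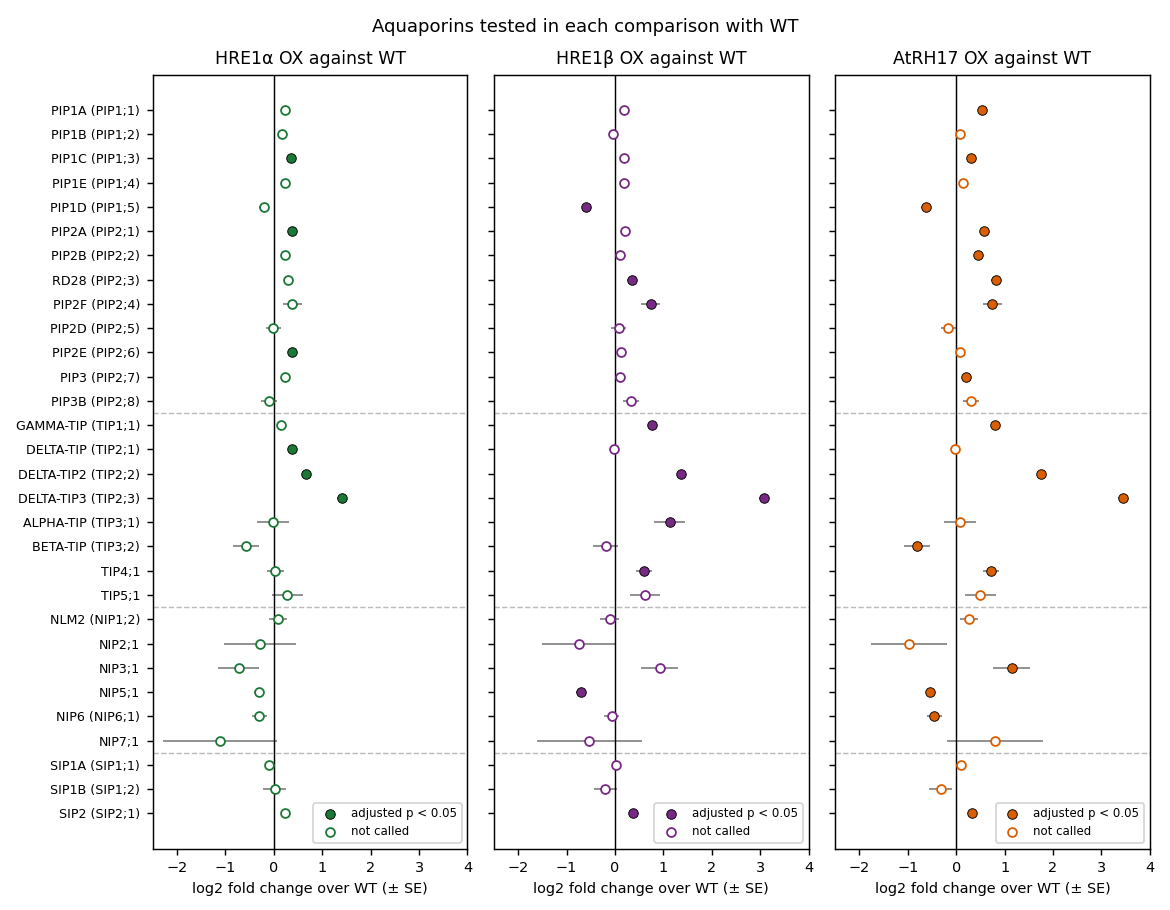
Log2 fold change over WT of the 30 tested aquaporins in the 3 lines, with standard errors. Rows are grouped from top to bottom into PIP, TIP, NIP and SIP genes by dashed lines, and filled points passed an adjusted p under 0.05. DELTA-TIP3 lies farthest to the right in each panel, at 1.40, 3.08 and 3.44.

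The TIP genes held the members with the widest differences. *DELTA-TIP3* (TIP2;3, AT5G47450, chromosome 5 from 19248249 to 19249622 on the reverse strand in TAIR10.1) was 2.64-fold higher than WT in *HRE1α* OXs, 8.46-fold higher in *HRE1β* OX-labelled libraries and 10.9-fold higher in *AtRH17* OX-labelled libraries. Its close relative *DELTA-TIP2* (TIP2;2, AT4G17340, chromosome 4 from 9698940 to 9700472 on the forward strand) was 1.58-fold, 2.58-fold and 3.36-fold higher in the same lines. The remaining TIP2 gene, *DELTA-TIP* (TIP2;1, AT3G16240, chromosome 3 from 5505360 to 5507050 on the forward strand), was higher than WT only in *HRE1α* OXs, at 1.29-fold. TIP2 proteins conduct water and ammonia into the vacuole. *DELTA-TIP2* and *DELTA-TIP3* are known mainly from roots, and *DELTA-TIP* also from shoots.

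The 250 bases before the annotated start of these 3 genes are shown because *DELTA-TIP3* and *DELTA-TIP2* moved together in all lines and *DELTA-TIP* did not. They were read from the TAIR10.1 genome (RefSeq) on the strand of the gene, 5′ to 3′, and capitals mark GCACCT. This is the rarest of the 5 runs of 6 bases that all 3 stretches share, and it was chosen after the sequences were seen.
DELTA-TIP3: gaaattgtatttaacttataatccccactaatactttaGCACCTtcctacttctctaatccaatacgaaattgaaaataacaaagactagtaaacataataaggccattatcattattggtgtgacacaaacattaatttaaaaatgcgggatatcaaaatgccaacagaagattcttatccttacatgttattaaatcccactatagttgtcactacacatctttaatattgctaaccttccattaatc
DELTA-TIP2: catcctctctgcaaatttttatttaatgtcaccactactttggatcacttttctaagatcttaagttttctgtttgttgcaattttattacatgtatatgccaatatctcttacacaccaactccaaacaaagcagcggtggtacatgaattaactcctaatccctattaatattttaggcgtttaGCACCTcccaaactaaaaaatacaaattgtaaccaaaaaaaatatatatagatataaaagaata
DELTA-TIP: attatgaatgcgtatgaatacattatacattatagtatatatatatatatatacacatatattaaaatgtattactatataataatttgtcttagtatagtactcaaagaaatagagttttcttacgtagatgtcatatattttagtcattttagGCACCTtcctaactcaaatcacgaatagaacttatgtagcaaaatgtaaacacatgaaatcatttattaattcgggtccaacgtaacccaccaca
The stretches lie at chr5:19249623-19249872 (reverse strand), chr4:9698690-9698939 (forward strand) and chr3:5505110-5505359 (forward strand). GCACCT starts 212 bases before *DELTA-TIP3*, 64 before *DELTA-TIP2* and 95 before *DELTA-TIP*. On either strand, 2.14% of 27443 promoters of this length hold it. The longest run shared by *DELTA-TIP3* and *DELTA-TIP2* was TTTAGCACCT, found on either strand in 10 promoters. That shared by *DELTA-TIP3* and *DELTA-TIP* was GCACCTTCCTA, found on either strand in 3. Because GCACCT was picked from runs common to all 3, its presence before *DELTA-TIP* was set in advance and is not a result. A match of letters is a description and not a binding site.

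In single libraries, *DELTA-TIP3* had 62.8 and 55.8 CPM in *HRE1α* OXs, 196 and 183 CPM in *HRE1β* OX-labelled libraries, 258 and 230 CPM in *AtRH17* OX-labelled libraries, and 25 and 19.9 CPM in WT. No group overlapped with another. The log2 fold changes over WT were 1.40 ± 0.103 (SE, adjusted p = 2.8e-10), 3.08 ± 0.105 (adjusted p = 1.7e-18) and 3.44 ± 0.106 (adjusted p = 1.1e-19, edgeR). The lines also differed from each other. The *HRE1β* OX-labelled libraries exceeded *HRE1α* OXs by 1.68 ± 0.0975 on the log2 scale (adjusted p = 3.5e-13, edgeR), and *AtRH17* OX-labelled libraries exceeded *HRE1β* OX-labelled libraries by 0.36 ± 0.0934 (adjusted p = 0.0082, edgeR). With all libraries, the order of the 4 groups was thus separated at each step. The step between the labelled lines was not followed over the alternatives.

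*DELTA-TIP2* had 118 and 109 CPM in *HRE1α* OXs, 192 and 178 CPM in *HRE1β* OX-labelled libraries, 235 and 247 CPM in *AtRH17* OX-labelled libraries, and 73.3 and 70.3 CPM in WT. The groups stood in the same order as for *DELTA-TIP3* and again did not overlap. Log2 fold changes over WT were 0.66 ± 0.0829 (adjusted p = 3.7e-06), 1.37 ± 0.0832 (adjusted p = 1.6e-13) and 1.75 ± 0.0838 (adjusted p = 5.1e-16, edgeR). *DELTA-TIP3* was counted 0.533 and 0.513 times as often as *DELTA-TIP2* in *HRE1α* OXs, 1.02 and 1.03 times in *HRE1β* OX-labelled libraries, 1.1 and 0.931 times in *AtRH17* OX-labelled libraries, and 0.341 and 0.283 times in WT.

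*DELTA-TIP* was the most abundant of the 33 members, with 35.3% of their mean level. It had 4607 and 4352 CPM in *HRE1α* OXs, 3305 and 3574 CPM in *HRE1β* OX-labelled libraries, 3324 and 3501 CPM in *AtRH17* OX-labelled libraries, and 3322 and 3631 CPM in WT. Only the *HRE1α* OX libraries stood apart, with a log2 fold change over WT of 0.37 ± 0.0779 (adjusted p = 0.004, edgeR). This call was lost without either *HRE1α* OX library (highest adjusted p = 0.204, edgeR). The last 120 bases of the gene overlap AT3G16250 on the opposite strand, and the use of strand in counting is not given in the sources used here. AT3G16250 had 1212 and 1115 CPM in *HRE1α* OXs, 835 and 911 CPM in *HRE1β* OX-labelled libraries, 845 and 881 CPM in *AtRH17* OX-labelled libraries, and 930 and 867 CPM in WT, so that it too was highest in *HRE1α* OXs. Its part in the *DELTA-TIP* value was not tested.

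Among all 22601 other genes tested, the 3 with a pattern over the 8 libraries most like *DELTA-TIP3* were *LAC3*, which encodes a laccase, F24J8.11 and MQD22.3 (Pearson's r of log2(CPM + 1) of 0.994, 0.993 and 0.993). *DELTA-TIP2* came at rank 5 with 0.991, and 234 genes reached 0.95 or more, so that the pattern was shared by many genes. The 8 libraries fall into 4 groups, and r mainly describes the order of these groups.

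*GAMMA-TIP* (AT2G36830) encodes a vacuolar channel for water that also passes hydrogen peroxide. It had 366 and 348 CPM in *HRE1α* OXs, 550 and 538 CPM in *HRE1β* OX-labelled libraries, 548 and 568 CPM in *AtRH17* OX-labelled libraries, and 343 and 299 CPM in WT. The *HRE1β* OX-labelled and *AtRH17* OX-labelled libraries lay above WT by log2 fold changes of 0.76 ± 0.0798 (adjusted p = 1.4e-08) and 0.80 ± 0.0798 (adjusted p = 3.6e-09, edgeR), and they were not separated from each other (0.04 ± 0.0792, adjusted p = 0.82, edgeR). In *HRE1α* OXs the difference of 0.15 ± 0.0795 did not pass (adjusted p = 0.4, edgeR). TIP4;1 (AT2G25810) had the same calls at a level near 18.4 CPM, with log2 fold changes of 0.60 and 0.72 (adjusted p = 0.012 and 0.0024, edgeR) beside 0.03 in *HRE1α* OXs. Its WT libraries lay apart at 17.5 and 10.9 CPM, and the call in *HRE1β* OX-labelled libraries was lost without WT replicate 2 (0.30, adjusted p = 0.186, edgeR) and without *HRE1β* OX replicate 1 (0.52, adjusted p = 0.102).

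The most abundant aquaporin of the family list, *TIP2* (AT3G26520), which lies outside the naming scheme and is the closest relative of *GAMMA-TIP*, went the other way. It had 5542 and 5915 CPM in *HRE1β* OX-labelled libraries and 5112 and 5323 CPM in *AtRH17* OX-labelled libraries, against 7209 and 7439 CPM in WT, with log2 fold changes of −0.35 (adjusted p = 0.00069) and −0.49 (adjusted p = 7.1e-06, edgeR). In *HRE1α* OXs it had 7621 and 7297 CPM and did not pass (0.03, adjusted p = 0.93, edgeR). Summed over the 9 TIP members, levels were 5179 and 4885 CPM in *HRE1α* OXs, 4283 and 4505 CPM in *HRE1β* OX-labelled libraries, 4398 and 4577 CPM in *AtRH17* OX-labelled libraries, and 3791 and 4041 CPM in WT. With *TIP2* added the sums were 12800 and 12182 CPM in *HRE1α* OXs, 9825 and 10420 CPM in *HRE1β* OX-labelled libraries, 9510 and 9901 CPM in *AtRH17* OX-labelled libraries, and 11000.4 and 11479 CPM in WT. The sums of both labelled lines thus lay above WT without *TIP2* and below WT with it.

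**Figure D2:**
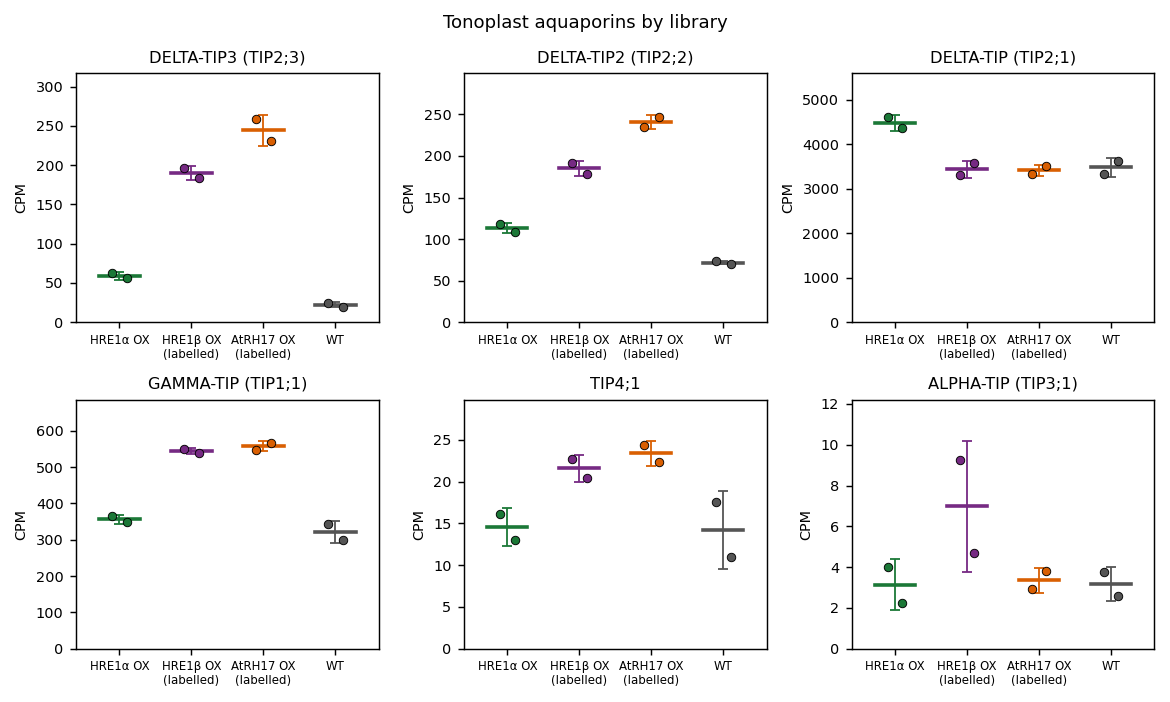
Level of 6 TIP genes in each library, in CPM, with 1 point per library, the group mean as a horizontal line and its SD as the error bar. DELTA-TIP3 and DELTA-TIP2 stand in the same order of groups, with WT at 22.4 and 71.8 CPM, while DELTA-TIP is highest in HRE1α OX at 4607 and 4352 CPM.

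TIP3 proteins belong to the vacuoles of seeds. *ALPHA-TIP* (AT1G73190) had 4.01 and 2.23 CPM in *HRE1α* OXs, 9.24 and 4.7 CPM in *HRE1β* OX-labelled libraries, 2.92 and 3.78 CPM in *AtRH17* OX-labelled libraries, and 3.77 and 2.56 CPM in WT. Both *HRE1β* OX-labelled libraries lay above all others, replicate 1 far more than replicate 2. The log2 fold change of *HRE1β* OX-labelled libraries over WT was 1.13 ± 0.32 (adjusted p = 0.012), and it was 0.57 (adjusted p = 0.339, edgeR) without that replicate and 0.88 (adjusted p = 0.0817) without WT replicate 2. Of 12 markers of mature seeds, 7 had enough counts to be tested, most of them only through the *HRE1β* OX-labelled libraries. All 7 were called higher there than in WT, an outcome that this filter largely set in advance. The levels that follow are a description only. The summed level of the 12 was 99.8 CPM in replicate 1 and 28.8 CPM in replicate 2 of these libraries, against 0.444 to 0.995 CPM in WT. It was 0.57 to 0.84 CPM in the remaining lines. In the first of these replicates *CRU3* and *CRA1*, which encode seed storage proteins, reached 37.4 and 26.5 CPM, and both were at 0 in WT. The part of seed RNA in the *ALPHA-TIP* value was not tested. The last 290 bases of *ALPHA-TIP* also overlap AT1G73200 on the opposite strand, which had 388 to 504 counts, against 62 to 250 for *ALPHA-TIP*.

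*BETA-TIP* (AT1G17810) had 2.7 ± 0.436 CPM in *AtRH17* OX-labelled libraries and 4.75 ± 0.583 CPM in WT (SD, n = 2), and it fell by 0.82 ± 0.271 on the log2 scale (adjusted p = 0.021, edgeR). The value is uncertain, since 2 genes on the opposite strand, AT1G05333 and AT1G17820, cover its 3′ end and had 115 to 211 counts per library, against 68 to 151 for *BETA-TIP*. AT1G05333 had 4.05 and 6.06 CPM in *AtRH17* OX-labelled libraries and 7.47 and 7.21 CPM in WT, and AT1G17820 had 4.05 and 6.06 CPM in *AtRH17* OX-labelled libraries and 7.36 and 7.18 CPM in WT. The 2 rows had nearly the same counts in every library, so they are not read as separate falls. Both were also lower in this line, and their part in the *BETA-TIP* value was not tested. The call was lost without WT replicate 2 (−0.69, adjusted p = 0.12) or *AtRH17* OX replicate 1 (−0.65, adjusted p = 0.177, edgeR). TIP5;1 (AT3G47440), known from pollen, had group means of 1.9 to 2.93 CPM and passed in no comparison, and the last 91 bases of its gene overlap AT3G47450. *GAMMA-TIP3* (AT4G01470), also a pollen gene, had 0 and 2 counts in *HRE1α* OXs, 0 in the 4 *HRE1β* OX-labelled or *AtRH17* OX-labelled libraries, and 5 and 0 in WT, and was not tested.

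Seedlings hold organs with different aquaporins, and markers of these were counted beside them. Of 15 root markers, 3 were higher in *HRE1β* OX-labelled libraries and 6 higher and 1 lower in *AtRH17* OX-labelled libraries, while none passed in *HRE1α* OXs (edgeR, 0 higher and 0 lower at an unadjusted p under 0.05). Among all genes, 11.2% were higher in *HRE1β* OX-labelled libraries, and in *AtRH17* OX-labelled libraries 15.3% were higher and 15.5% lower. Thus 12 of the 15 root markers did not pass in *HRE1β* OX-labelled libraries. Among the higher ones were genes of the Casparian strip, the barrier in the root endodermis. *CASP5* lay above WT by log2 fold changes of 2.21 (adjusted p = 2.7e-05) in *HRE1β* OX-labelled libraries and 2.72 (adjusted p = 7e-07, edgeR) in *AtRH17* OX-labelled libraries, and *CASP1* and *CASP2* by 1.16 and 1.10 in *AtRH17* OX-labelled libraries. The summed level of the 15 markers was 2344 to 2376 CPM in *HRE1α* OXs, 2303 to 2387 CPM in *HRE1β* OX-labelled libraries, 3821 to 4505 CPM in *AtRH17* OX-labelled libraries, and 2081 to 2318 CPM in WT. Most of it came from *PYK10*, and without this gene the sums were 194 to 197, 278 to 287, 317 to 354 and 164 to 226 CPM in the same order.

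Of 9 markers of green shoots, 3 were higher than WT in *HRE1α* OXs, 6 in *HRE1β* OX-labelled libraries and 9 in *AtRH17* OX-labelled libraries, and 0 were lower (edgeR, also 0 at an unadjusted p under 0.05). The shares of all genes that were higher in these lines were 1.57%, 11.2% and 15.3%. *LHCB3*, a protein of the photosynthetic antenna, was higher by 1.13 (adjusted p = 2.5e-12) and 1.41 (adjusted p = 1.2e-14, edgeR) on the log2 scale in the *HRE1β* OX-labelled and *AtRH17* OX-labelled libraries. Summed levels were 24963 to 25754, 26335 to 27815 and 28685 to 29523 CPM in the 3 lines, against 19605 to 22180 CPM in WT. *CASP5* had the largest log2 fold change of the 15 root markers in both labelled lines, below *DELTA-TIP3* and above *DELTA-TIP2*. The median of the 15 was 0.10 in *HRE1β* OX-labelled and 0.93 in *AtRH17* OX-labelled libraries, with 3 negative values in each. No root or shoot marker was at 0 in a whole group. The part of organ composition in the aquaporin values was not tested.

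**Figure D3:**
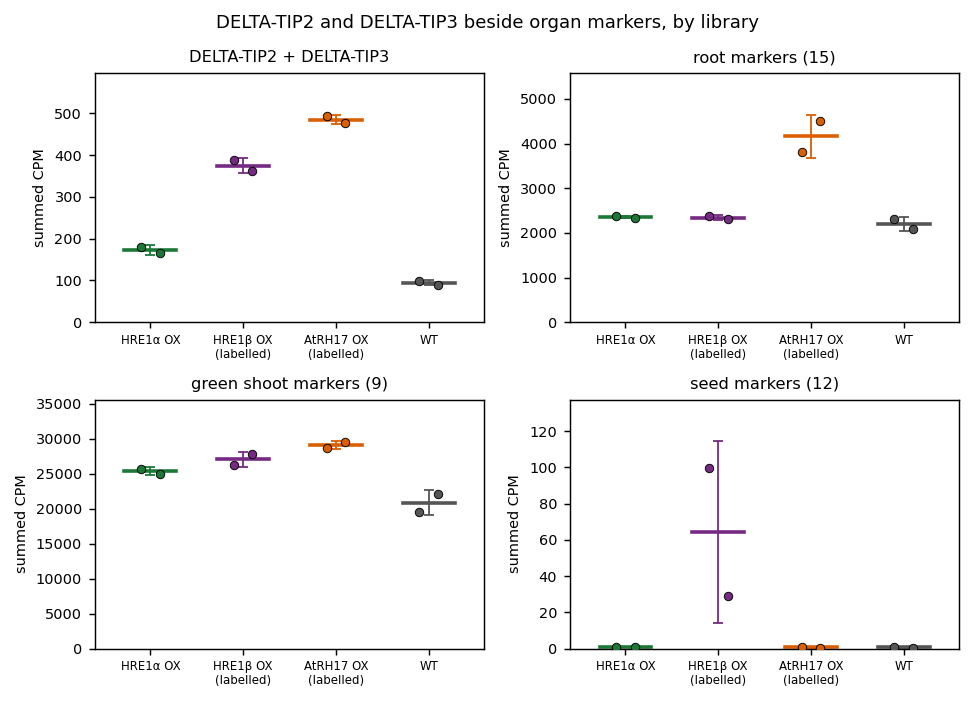
Summed level of DELTA-TIP2 and DELTA-TIP3 beside the summed levels of 15 root, 9 green shoot and 12 seed markers in each library, in CPM, with the group mean as a horizontal line and the SD as the error bar. The 2 aquaporins reach 493 and 477 CPM in AtRH17 OX-labelled libraries, against 98.3 and 90.2 CPM in WT, and the seed markers reach 99.8 and 28.8 CPM in HRE1β OX-labelled libraries.

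All 13 PIP genes were tested, and their changes were smaller than 2-fold throughout. Summed over the subfamily, PIP levels were 6167 and 6018 CPM in *HRE1α* OXs, 5312 and 5468 CPM in *HRE1β* OX-labelled libraries, 5817 and 6215 CPM in *AtRH17* OX-labelled libraries, and 5131 and 5156 CPM in WT, so that every library of the lines lay above both WT libraries. In *HRE1α* OXs 3 PIP genes were higher, against 1.57% of all genes. In *HRE1β* OX-labelled libraries 2 were higher and 1 lower, against 11.2% and 11.6% of all genes, and in *AtRH17* OX-labelled libraries 7 were higher and 1 lower, against 15.3% and 15.5%. At an unadjusted p under 0.05 the higher PIP genes numbered 9, 6 and 7 in the 3 lines, so the order of the lines depends on the threshold.

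Among the PIP2 genes, which encode the stronger water channels, *RD28* (AT2G37180) and *PIP2F* (AT5G60660) had the widest rises and were picked for this after their values were seen. *RD28* had 40.3 and 41.3 CPM in *HRE1α* OXs, 40.6 and 43.6 CPM in *HRE1β* OX-labelled libraries, 56.2 and 60.8 CPM in *AtRH17* OX-labelled libraries, and 33.6 and 32.5 CPM in WT. It rose by 0.82 ± 0.098 (adjusted p = 9.7e-08) in *AtRH17* OX-labelled libraries and by 0.35 ± 0.0983 (adjusted p = 0.0094, edgeR) in *HRE1β* OX-labelled libraries on the log2 scale, the second of which was lost without *HRE1β* OX replicate 2 (adjusted p = 0.102). *PIP2F* averaged 9.73 ± 0.27 CPM in *HRE1β* OX-labelled libraries, 9.83 ± 0.948 CPM in *AtRH17* OX-labelled libraries and 5.85 ± 0.479 CPM in WT (SD, n = 2), with log2 fold changes of 0.73 and 0.75 (adjusted p = 0.0056 and 0.0036, edgeR). The call in *AtRH17* OX-labelled libraries was lost without replicate 1 of that line (0.65, adjusted p = 0.0539, edgeR).

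The more abundant PIP2 genes moved less. *PIP2A* (AT3G53420), a main water channel of roots and leaves, had 862 and 797 CPM in *HRE1α* OXs, 727 and 755 CPM in *HRE1β* OX-labelled libraries, 910 and 994 CPM in *AtRH17* OX-labelled libraries, and 597 and 681 CPM in WT. Its log2 fold change was 0.38 ± 0.0809 (adjusted p = 0.0043) in *HRE1α* OXs, and it was 0.58 ± 0.0811 (adjusted p = 1.6e-06, edgeR) in *AtRH17* OX-labelled libraries, and the value of 0.21 in *HRE1β* OX-labelled libraries lay just outside the threshold (adjusted p = 0.054, edgeR). *PIP3* (AT4G35100) had 736 and 817 CPM in *HRE1α* OXs, 733 and 704 CPM in *HRE1β* OX-labelled libraries, 735 and 801 CPM in *AtRH17* OX-labelled libraries, and 696 and 633 CPM in WT. It passed only in *AtRH17* OX-labelled libraries, at 0.21 (adjusted p = 0.047, edgeR), and the call was lost in 4 of 12 alternatives, among them quantile normalization (0.06, adjusted p = 0.574, limma). *PIP2B* (AT2G37170) rose by 0.46 (adjusted p = 4.1e-05, edgeR) in *AtRH17* OX-labelled libraries and *PIP2E* (AT2G39010) by 0.38 (adjusted p = 0.0033, edgeR) in *HRE1α* OXs. *PIP2D* (AT3G54820) and *PIP3B* (AT2G16850) passed in no comparison with WT.

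In the PIP1 group, *PIP1B* (AT2G45960) was the most abundant PIP gene, with 2075 and 1999 CPM in *HRE1α* OXs, 1714 and 1775 CPM in *HRE1β* OX-labelled libraries, 1834 and 1970 CPM in *AtRH17* OX-labelled libraries, and 1790 and 1812 CPM in WT. It passed in no comparison with WT, and its log2 fold changes lay between −0.05 and 0.18. *PIP1A* (AT3G61430) rose by 0.54 (adjusted p = 3.1e-06, edgeR) in *AtRH17* OX-labelled libraries, where it had 374 and 417 CPM against 272.1 and 271.5 CPM in WT. *PIP1C* (AT1G01620) rose in *HRE1α* OXs by 0.35 (adjusted p = 0.0037) and in *AtRH17* OX-labelled libraries by 0.31 (adjusted p = 0.0016, edgeR), the second of which was lost under quantile normalization (0.17, adjusted p = 0.082, limma). *PIP1E* (AT4G00430) passed nowhere. In *HRE1α* OXs the calls of *PIP1C*, *PIP2A* and *PIP2E* were each lost without either library of that line (adjusted p of 0.0504 to 0.219, edgeR), and only those of *DELTA-TIP2* and *DELTA-TIP3* were kept.

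*PIP1D* (AT4G23400) was the only PIP gene that fell. It averaged 131 ± 3.95 CPM in *HRE1β* OX-labelled libraries, 128 ± 16.1 CPM in *AtRH17* OX-labelled libraries and 198 ± 26.8 CPM in WT (SD, n = 2), with log2 fold changes of −0.59 ± 0.0927 (adjusted p = 1.6e-05) and −0.63 ± 0.0929 (adjusted p = 4.9e-06, edgeR). In *HRE1α* OXs it had 171 ± 0.612 CPM and did not pass (−0.21, adjusted p = 0.27, edgeR).

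**Figure D4:**
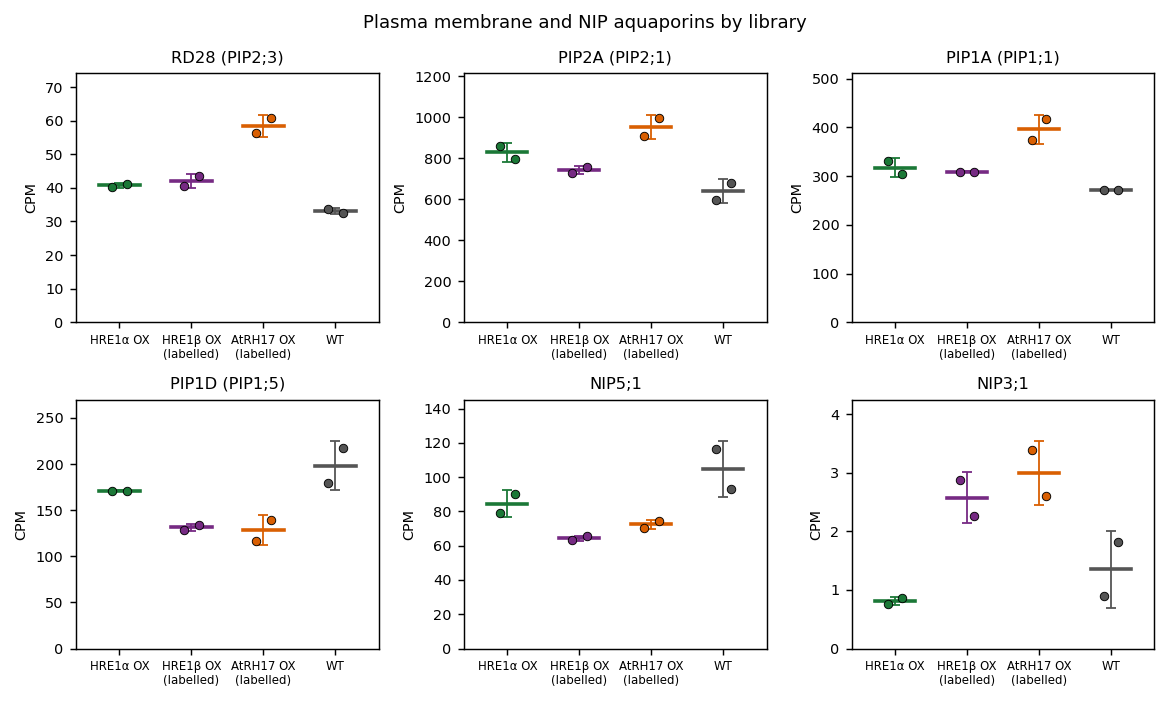
Level of 4 PIP and 2 NIP genes in each library, in CPM, with 1 point per library, the group mean as a horizontal line and its SD as the error bar. RD28 is highest in AtRH17 OX-labelled libraries at 56.2 and 60.8 CPM, and PIP1D and NIP5;1 are lower in HRE1β OX-labelled and AtRH17 OX-labelled libraries than in WT.

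The NIP genes had low levels, and their sum was 100.2 and 116 CPM in *HRE1α* OXs, 90 and 90.8 CPM in *HRE1β* OX-labelled libraries, 96.6 and 101 CPM in *AtRH17* OX-labelled libraries, and 143 and 120 CPM in WT. NIP5;1 (AT4G10380), the channel through which roots take up boric acid, made up most of this sum. It had 78.8 and 90.1 CPM in *HRE1α* OXs, 63.1 and 65.4 CPM in *HRE1β* OX-labelled libraries, 70.5 and 74.4 CPM in *AtRH17* OX-labelled libraries, and 116 and 93 CPM in WT. All 6 libraries of the lines lay below both WT libraries, and the gene fell by 0.70 ± 0.0982 (adjusted p = 2.8e-06) and by 0.53 ± 0.098 (adjusted p = 9.5e-05, edgeR) on the log2 scale in the *HRE1β* OX-labelled and *AtRH17* OX-labelled libraries. In *HRE1α* OXs the value of −0.31 ± 0.0975 did not pass (adjusted p = 0.083, edgeR), and 0 NIP genes passed there, with 1 at an unadjusted p under 0.05.

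*NIP6* (AT1G80760), a boric acid channel of the shoot, had 11.9 and 11.5 CPM in *HRE1α* OXs, 14.3 and 13.2 CPM in *HRE1β* OX-labelled libraries, 12.1 and 8.91 CPM in *AtRH17* OX-labelled libraries, and 14.6 and 14.2 CPM in WT. Its fall in *AtRH17* OX-labelled libraries (−0.45 ± 0.157, adjusted p = 0.028, edgeR) was lost in 6 of 12 alternatives, among them DESeq2 (adjusted p = 0.0508) and upper-quartile factors (adjusted p = 0.054, edgeR). The last 26 bases of *NIP6* overlap AT1G80750 on the opposite strand, which had 545 to 704 counts per library, against 219 to 415 for *NIP6*. The part of AT1G80750 in the *NIP6* value was not tested. *NLM2* (AT4G18910) had 7.79 and 12.3 CPM in *HRE1α* OXs, 8.65 and 8.91 CPM in *HRE1β* OX-labelled libraries, 9.83 and 13 CPM in *AtRH17* OX-labelled libraries, and 8.64 and 10.3 CPM in WT, and passed in no comparison. Of 3 boron exporters, 1 was higher in *HRE1β* OX-labelled libraries, against 11.2% of all genes, and 0 passed in the other lines against WT (edgeR, also 0 at an unadjusted p under 0.05).

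NIP3;1 (AT1G31885), which can pass arsenite, was the only NIP gene that rose. It had 0.764 and 0.865 CPM in *HRE1α* OXs, 2.88 and 2.27 CPM in *HRE1β* OX-labelled libraries, 3.38 and 2.6 CPM in *AtRH17* OX-labelled libraries, and 0.889 and 1.81 CPM in WT. The *AtRH17* OX-labelled libraries exceeded WT by 1.15 ± 0.377 (adjusted p = 0.02) and *HRE1α* OXs by 1.87 ± 0.401 (adjusted p = 0.00067, edgeR) on the log2 scale. Against WT, the call was lost without WT replicate 1 (0.73, adjusted p = 0.204, edgeR) or *AtRH17* OX replicate 1 (0.95, adjusted p = 0.165). The last 300 bases of its transcript are 94.2% identical over 293 bases to another stretch of the genome. No gene entry of the annotation covers that stretch, but pseudogene entries were not searched. Reads with multiple alignments had been counted.

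NIP2;1 (AT2G34390), a lactic acid channel known for its rise under low oxygen, had 15 and 44 counts in *HRE1α* OXs, 25 and 20 in *HRE1β* OX-labelled libraries, 4 and 30 in *AtRH17* OX-labelled libraries, and 58 and 17 in WT. The replicates differed as much as the groups, and no comparison passed. Its row is also uncertain, because AT2G08660 on the opposite strand overlaps 1432 of its bases and its transcript end is 97.2% identical over 218 bases to AT2G29870. NIP7;1 (AT3G06100), a gene of anthers, had 0 to 14 counts per library and passed nowhere. The pollen gene *NLM5* (AT5G37820) had 6 and 0 counts in *HRE1α* OXs, 4 and 1 in *HRE1β* OX-labelled libraries, 5 and 8 in *AtRH17* OX-labelled libraries, and 0 and 3 in WT, and NIP4;1 (AT5G37810) had 0 in all 8 libraries, which allows up to 3 counts, or 0.098 to 0.117 CPM, per library by counting error alone.

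*SIP2* (AT3G56950) had 199.96 and 183 CPM in *HRE1α* OXs, 199.8 and 222 CPM in *HRE1β* OX-labelled libraries, 211 and 196 CPM in *AtRH17* OX-labelled libraries, and 152 and 172 CPM in WT. It passed in *HRE1β* OX-labelled libraries (0.38 ± 0.0853, adjusted p = 0.0012) and *AtRH17* OX-labelled libraries (0.33 ± 0.0853, adjusted p = 0.0035, edgeR), the second of which was lost without *AtRH17* OX replicate 1 (0.28, adjusted p = 0.0606). The last 147 bases of *SIP2* overlap AT3G56940 on the opposite strand, whose counts exceeded those of *SIP2* in every library. AT3G56940 had 439 and 442 CPM in *HRE1α* OXs, 458 and 504 CPM in *HRE1β* OX-labelled libraries, 457 and 441 CPM in *AtRH17* OX-labelled libraries, and 322 and 399 CPM in WT. It thus lay above WT in every line, also in *HRE1α* OXs, where *SIP2* did not pass. The part of AT3G56940 in the *SIP2* values was not tested. *SIP1A* (AT3G04090) had 51.1 and 51.5 CPM in *HRE1α* OXs, 54 and 57.9 CPM in *HRE1β* OX-labelled libraries, 55.8 and 61.9 CPM in *AtRH17* OX-labelled libraries, and 55 and 54.8 CPM in WT. *SIP1B* (AT5G18290) had 5.12 and 4.72 CPM in *HRE1α* OXs, 4.14 and 4.28 CPM in *HRE1β* OX-labelled libraries, 3.98 and 3.78 CPM in *AtRH17* OX-labelled libraries, and 4.05 and 5.64 CPM in WT. Neither passed in any comparison.

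**Figure D5:**
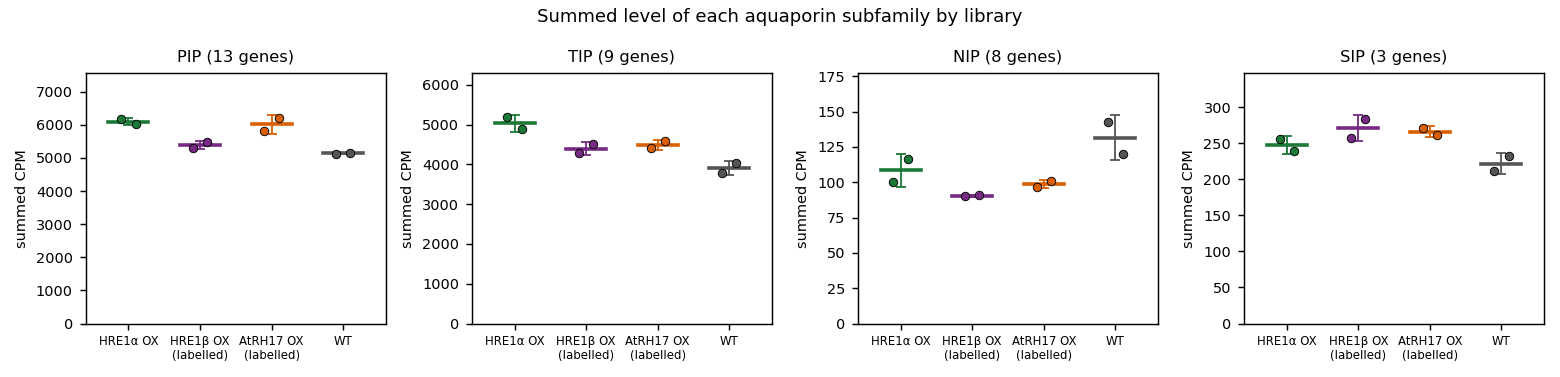
Summed level of the 13 PIP, 9 TIP, 8 NIP and 3 SIP genes in each library, in CPM, with 1 point per library, the group mean as a horizontal line and its SD as the error bar. PIP, TIP and SIP sums lie above both WT libraries in every library of the lines, and NIP sums lie below them, but TIP2 is not among the 9 TIP genes, and with it the TIP sums of both labelled lines lie below WT.

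At 2-fold and an adjusted p under 0.05, 1 member was higher than WT in *HRE1α* OXs, 3 in *HRE1β* OX-labelled libraries and 3 in *AtRH17* OX-labelled libraries, against 0.243%, 3.24% and 4.27% of all genes tested. They were *DELTA-TIP3* in every line, *DELTA-TIP2* in both labelled lines, *ALPHA-TIP* in *HRE1β* OX-labelled libraries and NIP3;1 in *AtRH17* OX-labelled libraries. No member was lower by 2-fold at this threshold in any line.

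The lines were also compared with each other. In *HRE1β* OX-labelled libraries 6 members were higher and 5 lower than in *HRE1α* OXs, against 8.86% and 7.87% of all genes. The higher ones were 5 TIP genes and NIP3;1, and the lower ones included *DELTA-TIP* (−0.38, adjusted p = 0.00068), *PIP1D* (−0.38, adjusted p = 0.0043) and NIP5;1 (−0.39, adjusted p = 0.0051, edgeR). Over the alternatives, the log2 fold change ranged from 0.59 to 1.63 for *ALPHA-TIP* and from 0.89 to 1.82 for NIP3;1. Neither of these calls was kept in every alternative. In total 11 members passed, against 6 without *HRE1α* OX replicate 1, 5 without *HRE1α* OX replicate 2 and 4 without *HRE1β* OX replicate 1. In *AtRH17* OX-labelled libraries 6 members were higher and 1 lower than in *HRE1β* OX-labelled libraries, against 7.42% and 6.45% of all genes. The higher ones were *DELTA-TIP2*, *DELTA-TIP3* and the PIP genes *PIP1A*, *PIP2A*, *PIP2B* and *RD28*, and the lower one was *ALPHA-TIP*. The log2 fold change of *ALPHA-TIP* was −1.05 with all libraries and ranged from −1.47 to −0.49 over the alternatives, not all of which kept the call. In total 7 passed, against 4 without *HRE1β* OX replicate 2 and 3 without *AtRH17* OX replicate 2. Compared with *HRE1α* OXs, *AtRH17* OX-labelled libraries had 8 members higher and 3 lower, against 13.4% and 12.4% of all genes.

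Genes that act beside aquaporins were counted in 3 further lists, to be read against 1.57%, 11.2% and 15.3% of all genes higher and 1.8%, 11.6% and 15.5% lower in *HRE1α* OXs and in the *HRE1β* OX-labelled and *AtRH17* OX-labelled libraries. Of 5 ammonium transporters tested, 1 was higher in *HRE1β* OX-labelled libraries and 2 in *AtRH17* OX-labelled libraries, and 0 were lower or passed in *HRE1α* OXs (edgeR, also 0 there at an unadjusted p under 0.05). Of 6 proton pumps, which set the pH on both sides of the membranes, 3 were lower in *AtRH17* OX-labelled libraries and 0 passed in the other lines, where 0 also had an unadjusted p under 0.05. Of 9 genes for trafficking and phosphorylation of PIP proteins, 1 was lower in *HRE1α* OXs, 4 were lower and 1 was higher in *HRE1β* OX-labelled libraries, and 3 were lower and 1 was higher in *AtRH17* OX-labelled libraries. The lower ones were *RMA1* in all 3 lines, *RMA3* and *VAP27-1* in both labelled lines, and *RMA2* in *HRE1β* OX-labelled libraries. Their log2 fold changes lay between −0.86 and −0.36. The higher one was *TSPO*, a membrane protein known to bind the PIP3 protein and lead to its degradation, with 1.18 and 1.23 CPM in *HRE1α* OXs, 8.39 and 5.87 CPM in *HRE1β* OX-labelled libraries, 3.59 and 4.56 CPM in *AtRH17* OX-labelled libraries, and 0.107 and 0.991 CPM in WT. Its log2 fold changes in the labelled lines were 3.67 ± 0.487 (adjusted p = 3.4e-05) and 2.86 ± 0.498 (adjusted p = 0.00032, edgeR). They rest on 3 and 29 counts in the WT libraries.

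Proteins of the ERF family are known for binding the GCC box, and the 250 bases before each of the 33 members were searched for it on both strands. AGCCGCC was in 0 of 33 promoters, against 0.587% of 27443 promoters, and the core GCCGCC in 0, against 1.87%. CCGAC, the core of the dehydration-responsive element, was in 3 (*PIP1C*, *PIP2D* and *GAMMA-TIP*), a share of 9.09% against 12% of all promoters. The G-box CACGTG was in 0, against 6.49%. CCAAT was in 18 of the 33 (54.5% against 46%) and TATAAA in 12 (36.4% against 47.3%). These letters describe the windows only.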

How the data were processed

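Total RNA of whole *Arabidopsis* seedlings had been made into 8 QuantSeq libraries, 2 in each of 4 groups. The deposited values are raw counts per gene, for which the authors aligned reads with Bowtie2 to TAIR10 and counted unique and multiple alignments with Bedtools coverage. Versions and the use of strand are not given in the sources used here, and edgeR is also named in the submitters' processing notes. Groups were taken from the labels. The members and the gene lists were chosen with earlier results of these data known.

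All 33028 gene rows were matched to the TAIR10.1 annotation. Counts were tested with edgeR 4.0.16 in R 4.3.3 (TMM factors, filterByExpr, robust quasi-likelihood F test) in one fit of all 8 libraries, and p-values were adjusted by Benjamini-Hochberg over 22602 genes. A gene was called at an adjusted p under 0.05. Standard errors were derived from the F statistic and the fold change. The fit was also run on simulated data with 2-fold changes and the same relative spread for every gene. That setting does not cover the smaller changes given here. Levels are CPM computed with the TMM-scaled totals. No exact permutation test between 2 groups of 2 libraries can pass 0.05.

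Values per library are given for members called at 2-fold in a line, for the 3 most abundant of each subfamily and for members at 3 counts or fewer in a whole group but not in another. Other members named were chosen after their values were seen. Lists held 15 root, 9 green shoot and 12 seed markers, 6 ammonium transporters, 3 boron exporters, 6 proton pumps and 9 PIP partners. Sums without *PYK10* were added after the values were seen. Alternatives were upper-quartile factors, DESeq2 1.42.0, quantile normalization of log2(CPM + 1) with limma 3.58.1, other filters, fewer groups, removal of organelle genes, the replicate number as a block, and fits that omit 1 library in turn. Counting floors cover counting error only.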

Additional observations from a re-analysis of the deposited data

How the results depend on the processing

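Single results were followed for every call against WT and, between lines, only for calls of 2-fold or more. Smaller calls between lines are not part of the counts that follow. Of the 40 member results followed, 23 kept their direction and call in every alternative run, 17 lost the call in at least 1 and 0 reversed. These were 37 of 499 alternative values. Leaving out single libraries moved the number of members called most. Against WT it ranged from 2 to 9 for *HRE1α* OXs (6 with all libraries, and 2 without either *HRE1α* OX library), from 8 to 11 for the *HRE1β* OX-labelled libraries (10 with all) and from 13 to 16 for the *AtRH17* OX-labelled libraries (17 with all). It ranged from 4 to 10 for *HRE1β* OX against *HRE1α* OX (11 with all), from 3 to 6 for *AtRH17* OX against *HRE1β* OX (7 with all) and from 8 to 10 for *AtRH17* OX against *HRE1α* OX (11 with all). A fit that leaves 1 library in a group takes its spread from the other groups.

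Same-numbered libraries did not deviate together (correlations of −0.0058 to 0.058), so the numbers do not pair them. With the replicate number as a block, 6, 11 and 17 members passed for *HRE1α* OX, *HRE1β* OX and *AtRH17* OX against WT, and 12, 7 and 11 in the 3 comparisons between lines in the order above. The standard errors of the NIP2 and NIP7 genes were 0.745 to 1.22 on the log2 scale, so that 2-fold changes of these were not detectable at this depth.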
